A study of Drosophila melanogaster with 3 samples.

Results

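The 10 Notch signalling genes N, Dl, Ser, Su(H), mam, fng, H, neur, kuz and E(spl)m3-HLH were examined for recovery of Doc3, a T-box transcription factor, by chromatin immunoprecipitation and sequencing. They are 10 of the 13945 protein-coding genes on the 6 chromosome sequences used. They were named by pathway, but with earlier results of these data known. Each gene was given a territory, which is its body with 10 kb on either side, without the bases nearer to a transcription start site (TSS) of another coding gene. A peak belongs to a gene when its summit lies in the territory. All 3 samples are biological replicates of a single group, whole Drosophila melanogaster embryos aged 0 to 24 hours of a strain that carries Doc3 fused to eGFP, precipitated with an antibody against GFP. The labels describe an insertion targeting Doc3. Embryos of all stages and tissues were pooled, so the lists do not tell in which cells a region was recovered. No mock or input sample was analysed here, and no comparison between conditions is possible.

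Notch signalling passes between touching cells. The ligands Dl and Ser on one cell bind the receptor N on the next, N is cut by proteases such as kuz, and the freed intracellular part enters the nucleus, where it joins the DNA-binding protein Su(H) and the co-activator mam. The basic helix-loop-helix genes of the E(spl) complex are classic targets and code for repressors that keep cells from a neural fate. In the embryo the pathway acts in the choice between neural and epidermal fate, in the mesoderm and in the heart, while Doc3 and its Dorsocross relatives act in the amnioserosa and the cardiac mesoderm.

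The sequences at 4 of these genes show what lay under the recovered regions, and that of N is shown because a promoter element lies beside its start. They were read from the RefSeq sequence of genome release 6, the release of the dm6 build of the peak lists, and run 5′ to 3′ on the strand of the gene. Capitals mark copies of the motifs searched, TATCGATA (the DNA replication-related element, DRE) in Su(H), GAGAG or its reverse CTCTC (the GAGA element) in Dl, fng and E(spl)m3-HLH, and GGTCACACT (Motif 1 of core promoters) in N. The Su(H) stretch is only the site itself at the summit, chr2L:15039487-15039510. The Dl stretch, chr3R:19322018-19322118, is centred on the intronic summit. The fng stretch, chr3L:20949529-20949629, ends 17 bp upstream of the start. The E(spl)m3-HLH stretch, chr3R:26021611-26021761, ends 62 bp upstream of the start, and the N stretch, chrX:3134810-3134869, ends at the base before it.
Su(H): tatcggacTATCGATAcaacatca
Dl: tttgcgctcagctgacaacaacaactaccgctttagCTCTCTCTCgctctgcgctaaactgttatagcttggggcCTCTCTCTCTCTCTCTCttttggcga
fng: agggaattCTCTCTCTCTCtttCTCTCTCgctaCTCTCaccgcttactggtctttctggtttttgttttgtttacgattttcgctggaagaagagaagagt
E(spl)m3-HLH: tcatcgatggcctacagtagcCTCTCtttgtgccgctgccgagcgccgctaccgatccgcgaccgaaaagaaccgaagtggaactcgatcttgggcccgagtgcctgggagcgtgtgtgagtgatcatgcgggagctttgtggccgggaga
N: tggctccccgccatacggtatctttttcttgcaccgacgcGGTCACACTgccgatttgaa

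Peaks were found at the genes of the nuclear effectors, at a ligand, at the sugar-modifying enzyme, at the receptor protease and at a target. In the list that the authors marked as conservative, 6 of the 10 genes held a peak (mam, Su(H), Dl, fng, kuz and E(spl)m3-HLH), where 16.6% of all coding genes did (2319 of 13945, 95% Wilson interval 16.0 to 17.3%, counting error only). The share was 16.1% among the 7901 coding genes with territories inside the length range of the 10 genes, from 3.56 to 58.8 kb. This range is not a match of lengths. The median territory was 18.4 kb for the 10 genes and 4.33 kb for all coding genes. Whether territory length bears on the count was not tested. The genes were chosen with results of these data known, so their count is a description. The authors' signal value measures the strength of a peak on a scale that is not stated. It was the same for every region that the conservative list shared with another list of the whole series, so the series-level lists can be read side by side. The other 3 of these lists held peaks at 4 of the 10 genes in the list of 2456 peaks (15.3% of coding genes), at 3 in the list of 2301 (13.9%) and at 6 in the list of 3513 (21.2%). Su(H), mam and Dl were in all 4 lists, E(spl)m3-HLH in 3, fng in 2, and kuz and N in 1 each, while Ser, H and neur held no series-level peak in their territories.

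**Figure D1:**
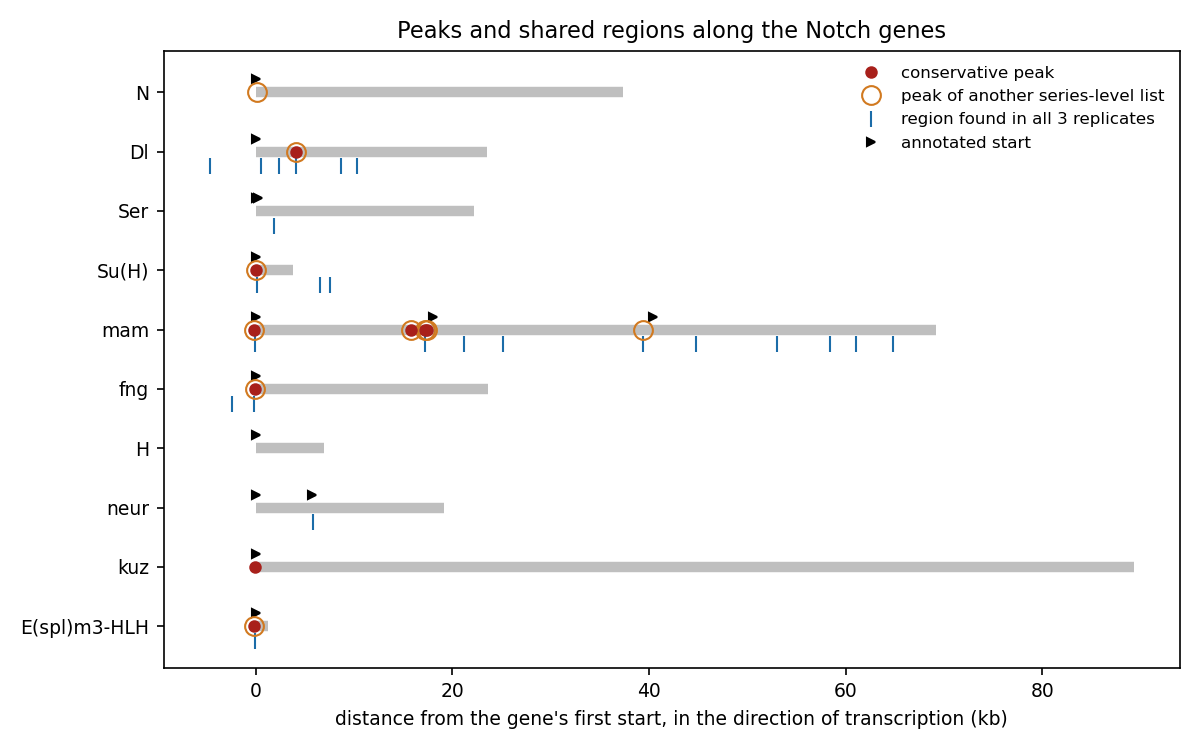
Position of series-level peaks and of regions found in all 3 replicates along the 10 genes, in kb from the first start of each gene in the direction of transcription. Grey bars are gene bodies. The conservative peaks of Su(H), fng, kuz and E(spl)m3-HLH sit at the start, and that of Dl lies 4149 bp inside the gene. Those of mam lie at its first start and before its second. The peak before the third start of mam is in the list of 3513 peaks only.

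Su(H), the DNA-binding protein that carries the Notch signal to target genes, had a peak that every replicate held above the threshold. Its conservative peak, chr2L:15039253-15039736, had its summit 7 bp downstream of the only annotated start, with a signal of 251.7 and rank 914 of 2793. In the replicates' thresholded lists the region was found with signal values of 67.3, 115.4 and 92.3 in replicates 1, 2 and 3. Of the 9 conservative peaks of the 10 genes it was the single one overlapped in all 3 thresholded lists, where 53.6% of all conservative peaks were. Its ranks in the full ranked lists were 651, 858 and 906, a mean of 805 ± 136 (SD, n = 3), and the summits lay within 25 bp of each other. The DRE printed above begins at the summit and lies within 50 bp of it, as in 18.4% of all conservative peaks (513 of 2793). Among the 9 peaks, no other held TATCGATA, also not within 250 bp, where 36.2% of all conservative peaks held it. TATCGAT, the DRE without its last base, lay within 100 bp of this summit and of that at the first start of mam. Of all conservative peaks, 45.6% held it within 100 bp.

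The co-activator gene mam, on 2R from 13991203 to 14060356, held the strongest peak and the largest number of them, 4 in the conservative list. The strongest, on 2R from 13990957 to 13991198, lay 125 bp upstream of the first start, with a signal of 414.9 and rank 360 of 2793. It was narrow, 242 bp against a median of 484 bp in the list. A start of the neighbouring gene RN-tre lies within 500 bp of the same summit, so the peak cannot be given to mam alone. The replicates ranked it 596, 479 and 434 with signal values of 70.4, 159.3 and 139.8, a mean rank of 503 ± 84 (SD, n = 3), and it was in the thresholded lists of replicates 2 and 3 but not in that of replicate 1.

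The other peaks of mam lay inside the gene, in the intron before its second start, where no other coding gene has a start within 500 bp. A peak 2186 bp upstream of that start had a signal of 184.1 and rank 1308. It was found in replicates 1 and 2 with signal values of 36.9 and 83.2, and no ranked region of replicate 3 overlapped it. A peak 751 bp upstream of the same start had a signal of 130.5 and overlapped another of 20.3, so the 4 peaks are 3 separate regions. The replicates showed it with signal values of 39.3, 65.7 and 36.1 and ranks of 1324, 1821 and 3960. Counted from the top of each list these are 4.39, 3.07 and 2.8%, so the order of the replicates depends on whether list length is allowed for. The list of 3513 peaks added a weaker peak 1055 bp upstream of the third start, with a signal of 75.0, which the replicates ranked 22866, 3876 and 8907. Its window held GGTGTGA, the core read by T-box proteins, with the centre 84 bp from the summit. No conservative peak of the 10 genes held GGTGTGA within 250 bp, where 5.3% of all conservative peaks did. No match says only that these letters are not in these windows.

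The ligand genes differed from each other. At Dl (annotated as Delta), on 3R from 19302731 to 19326217, the peak chr3R:19321826-19322309 lay in an intron 4149 bp downstream of the only start, with no other coding start within 500 bp. Its signal was 151.2 and its rank 1567 of 2793. Replicate values were 25.2, 69.6 and 42.2, at ranks of 2135, 1700 and 2445 (2093 ± 374, SD, n = 3). From the top of each list these are 7.08, 2.86 and 1.73%, and only replicate 2 had it in its thresholded list. Of all conservative peaks, 4.22% had the summit in an intron and 90.7% at a promoter, within 500 bp of a coding start. Among the 9 peaks of the 10 genes, 4 lay in introns and 5 at promoters, and 3 of the 4 are those of mam.

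At Ser, the second ligand, no thresholded list of a replicate or of the series held a peak. The strongest ranked regions in its territory had signal values of 12.5, 25.4 and 29.7 at ranks of 7978, 12436 and 8793. They lay at different places, 6297 bp downstream of a start in replicate 1 and 7672 and 6342 bp upstream in replicates 2 and 3. At Ser the replicates shared a single region, in an intron 1631 bp downstream of a start, with ranks from 22645 to 34219.

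The gene of the receptor, N, on X from 3134870 to 3172221, was held by 1 series-level list only, that of 3513 peaks. The peak, chrX:3134813-3135296, lay 185 bp downstream of the start with a signal of 84.2. Replicate 2 had it in its thresholded list at 55.6 and rank 1951. The ranked list of replicate 3 held it at 16.8 and rank 47875, and that of replicate 1 held no summit within 500 bp of the start. The receptor gene therefore had a peak in 1 of the 3 replicates by the thresholded lists, and no region of its territory was found in all 3.

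Among the genes that modify or cut the receptor, fng codes for a glycosyltransferase that changes how N answers its ligands. Its conservative peak, chr3L:20949337-20949820, lay 67 bp upstream of its start with a signal of 136.3 and rank 1711. The thresholded lists of replicates 1 and 2 held it at 31.2 and 86.5. In replicate 3 the region at the start had a signal of 27.3 and rank 12167, behind another region 8165 bp inside the gene with rank 6251. Counted from the top of each ranked list, the region at the start of fng stood at 5.64, 2.19 and 8.62% in replicates 1, 2 and 3, furthest up in replicate 2.

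The protease gene kuz, on 2L from 13550139 to 13639411, had its conservative peak 76 bp upstream of the start, with a signal of 79.6 and rank 2265. No thresholded list of a replicate held it, as for 13.9% of all conservative peaks. The ranked lists of replicates 1 and 2 had it at 20.4 and 43.5, ranks of 2775 and 3101, and that of replicate 3 had no region there. The other 3 series-level lists did not hold it.

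The start of neur, which codes for the ubiquitin ligase that drives endocytosis of Dl, lies beside that of its neighbour hyx. The first start of neur was recovered in every replicate, with signal values of 32.6, 63.9 and 81.4 at ranks of 1625, 1879 and 1061 for summits 68, 229 and 138 bp upstream of it. The summits of replicates 1 and 3 lay in the territory of neur and were in the thresholded lists, at ranks 1467 of 1774 and 1019 of 1812, while that of replicate 2 was nearer to hyx. The lists of 2456 and 3513 peaks held the region as chr3R:9039449-9039932 with a signal of 166.8, but its summit was 220 bp upstream of neur and 75 bp from a start of hyx. By the rule above it belongs to hyx, and the conservative list did not hold it. All 4 series-level lists, the conservative one included, held a stronger peak with a signal of 385.6 inside the body of neur. Its summit was 622 bp downstream of the same start of neur and 89 bp from a start of hyx, so it also belongs to hyx. In all 4 lists the count of neur as a gene with no series-level peak therefore turned on the territory rule. The thresholded lists of replicates 1 and 3 did hold a peak of neur.

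H, the co-repressor that binds Su(H), had no thresholded peak in any replicate or series-level list. It was the only one of the 10 genes with no region in the ranked list of replicate 1, and the strongest regions of replicates 2 and 3 had signal values of 23.9 and 33.9 at ranks of 14744 and 5155. The only conservative peak in its window lay 12898 bp downstream of its start, at the promoter of Pi3K92E.

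E(spl)m3-HLH, a target that codes for a basic helix-loop-helix repressor, had a conservative peak at chr3R:26021469-26021952, with the summit 112 bp upstream of the start, a signal of 122.2 and rank 1848. The replicates had it at 18.2, 62.9 and 58.3, ranks of 3321, 1912 and 1512 (2248 ± 950, SD, n = 3), and the thresholded lists of replicates 2 and 3 held it. The replicates placed the summit 86, 85 and 65 bp upstream of the start, within 21 bp of each other.

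**Figure D2:**
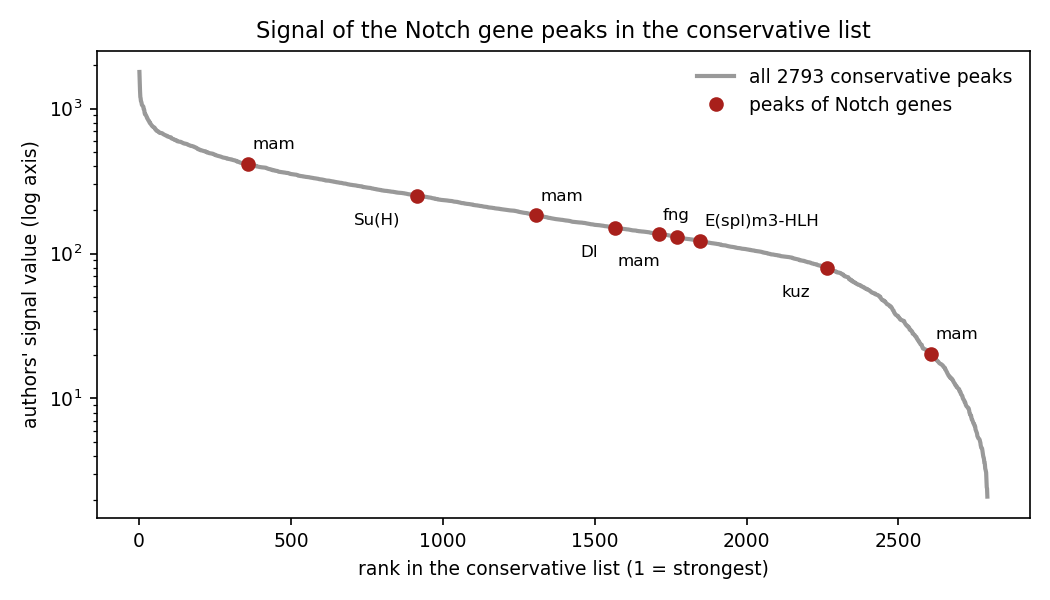
Signal value (log axis) against rank for all 2793 conservative peaks (grey line), with the 9 peaks of Notch genes as red points. The peaks of mam range from 414.9 to 20.3, and 3 of the 9 peaks, 2 of mam and that of Su(H), are among the strongest 1396.

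The genes were then ordered by the rank of the strongest region in their territory. The ranked lists held 30159, 59389 and 141211 regions in replicates 1, 2 and 3, so a rank is best read within its own list. In each replicate mam ranked ahead of Su(H), and Su(H) ahead of Dl. By the mean of the 3 ranks, mam (503) came first and Su(H) (805) second, and their ranges of ranks overlapped neither each other nor that of Dl (2093). As percentages from the top, which allow for list length, mam ranged from 0.307 to 1.98%, Su(H) from 0.642 to 2.16% and Dl from 1.73 to 7.08%, so these ranges did overlap. The place of mam rests on the region at its first start, which cannot be told apart from a region of RN-tre. The next region of mam shared by all replicates, 751 bp upstream of the second start, ranked 1324, 1821 and 3960. These ranks are behind Su(H) in each replicate, and behind Dl in replicates 2 and 3 but not in replicate 1. From Dl on, the ranges of ranks overlapped between neighbours in the order Dl, E(spl)m3-HLH (2248), fng (3084), kuz (3459), neur (4113), N (7189) and Ser (9736). These ranges mix lists of unlike length. Read within each list, the order of each of these pairs of neighbours changed between replicates. The place of neur rests on the territory rule, since its rank of 9653 in replicate 2 leaves out the region at its first start that falls to hyx. With that region, the ranks at its start given above (1625, 1879 and 1061) are ahead of those of Dl in replicates 1 and 3. At fng, kuz, neur, N and Ser the strongest region was not at the same place in all replicates, with summits from 2138 to 18828 bp apart. H had no value in replicate 1 and was left out of the order.

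**Figure D3:**
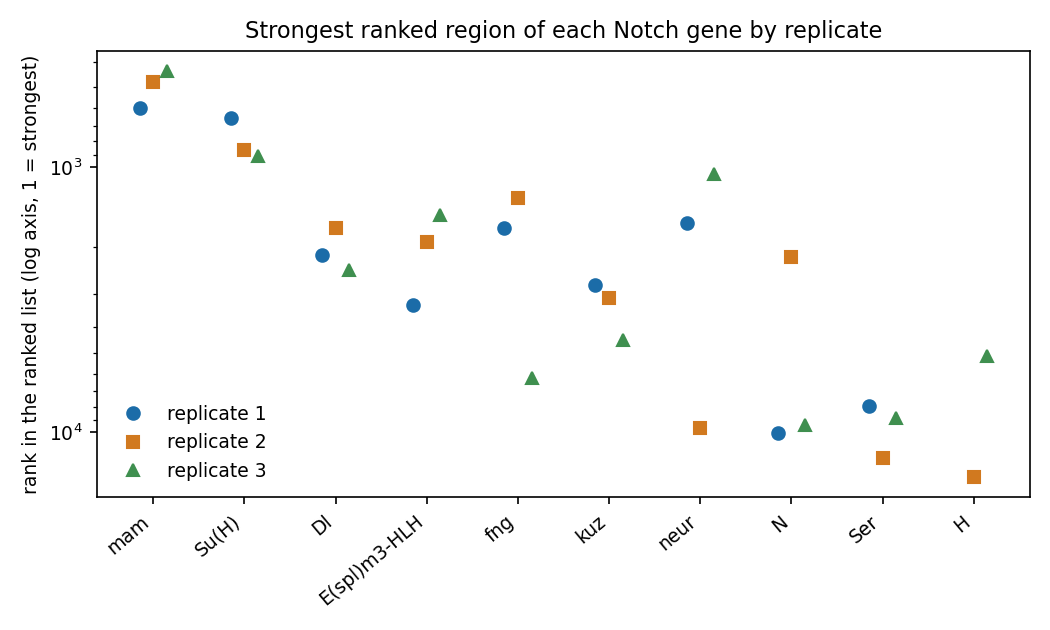
Rank of the strongest ranked region in the territory of each Notch gene, by replicate (log axis, 1 is the strongest of the list). Ranks of mam, at a region also near a start of RN-tre, lie between 434 and 596 and those of Su(H) between 651 and 906. From Dl on the ranges of neighbouring genes overlap. H has no region in replicate 1.

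Regions shared by all ranked lists were then considered, which include weak ones. The ranked lists covered 7.9, 16.5 and 35.2% of the chromosomes in replicates 1, 2 and 3, and the bases common to all made up 2.45%, in 13678 regions. Of the 10 genes, 7 had such a region in their territory, where 52.9% of coding genes did, and the 10 genes have a median territory of 18.4 kb against 4.33 kb for all coding genes. Per 10 kb of territory there were 1.2 regions over the 10 genes together and 1.18 over all coding genes, so the density was near that of the genome. By gene it was 3.16 at Su(H), 2.81 at E(spl)m3-HLH, 2.47 at Dl, 1.7 at mam, 1.38 at fng, 1.01 at neur and 0.41 at Ser, and N, H and kuz had none. The value of Su(H) comes from 3 regions. Those 6535 and 7590 bp downstream of its start lay past the end of Su(H), in coding exons of another gene. The value of E(spl)m3-HLH is 1 region in a territory of 3.56 kb. At the start itself, within 500 bp, all 3 ranked lists had a summit at mam, Su(H), fng, neur and E(spl)m3-HLH, 5 of the 10 genes, where 41.4% of coding genes had one.

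Of the 24 shared regions, 10 lay at mam and 6 at Dl. Introns held 13, promoters 5, coding exons 3, intergenic sequence 2 and a 5' UTR 1. Series-level peaks overlapped 7 of them, and 17 were in no series-level list. Besides its called peak, Dl had shared regions at 604, 2427, 8716 and 10294 bp inside the gene and 4643 bp upstream of it. The region at 2427 bp had signal values of 15.5, 24.1 and 18.0, and that at 10294 bp had 9.28, 15.2 and 32.3. Within mam, a region 12606 bp downstream of the third start had ranks of 6947, 11385 and 10713, and that at 20630 bp had 15752, 15961 and 13254. None of these regions of Dl and mam was in a series-level list.

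The GAGA element was also present at these peaks. GAGAG lay wholly within 50 bp of 4 of the 9 summits, at Dl, at fng, at kuz and at the mam peak 751 bp upstream of the second start, where 9.6% of all conservative peaks held it. A copy at E(spl)m3-HLH had its centre 49 bp from the summit but ran past the edge of the window, so it was not counted. Within 250 bp all 9 summits of the conservative list held it, where 38.5% did. The overlapping peaks of mam were counted separately there, and the copies near the weaker one were also counted for the stronger one. The share of GAGAG within 250 bp was 64.4% for the 118 intronic peaks and 37.0% for the 2534 promoter peaks of the conservative list, and 33.7% among its strongest 1396 peaks and 43.3% among the other 1397. The part of position and strength in the count at the 10 genes was not tested. Copies of GAGAG in the runs of Dl and fng overlap each other. GTGGGAA, the site read by Su(H), lay within 250 bp of a single summit, that of Dl with its centre 222 bp from it, where 5.37% of all conservative peaks held it. The region of N held GGTCACACT 201 bp from its summit, and none of the 9 conservative peaks held it or CAGGTAG, the Zelda site, within 250 bp.

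Other genes of the pathway were taken from a list of 51. Of these, 14 had a conservative peak (27.5%), against the 16.6% of coding genes given above. All 5 genes for ubiquitination and endocytosis of ligands had one, namely aux (auxilin, 574.3), Nak (Numb-associated kinase, 572.3), shi (dynamin, 439.0), lqf (epsin, 270.6) and mib1 (a ubiquitin ligase for Dl and Ser, 238.3). The gene neur acts in the same step but was counted among the 10 genes, not here. It had no conservative peak in its territory. The 51 genes were listed with earlier results of these data known. The replicates ranked the peak of aux 114, 189 and 139, ahead of every peak of the 10 genes. Of the 6 genes for gamma-secretase and other proteases, Psn, the catalytic subunit, had 221.8 and pen-2, another subunit, had 247.1. Rab11 (474.0), a GTPase of recycling endosomes, and Su(dx) (420.2), a ubiquitin ligase that acts on N, were the 2 of 9 in trafficking and degradation.

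Among 7 nuclear cofactors, insv (216.4), the co-repressor gro (167.9) and the acetyltransferase nej (127.3) had a peak. Of 5 glycosylation genes, rumi, an O-glucosyltransferase acting on N, had one (326.2). Of the 11 other E(spl) complex genes, only E(spl)m7-HLH did, at 78.3 and rank 2271, and none of 4 Bearded complex genes or 4 other modulators did. Starts of other coding genes lay within 500 bp of the summit for Nak (Tango6), Psn (Las), pen-2 (Ote), rumi (Usp12-46 and CG7029) and Su(dx) (lectin-22C), so these peaks are shared. The strongest summit of each of the 14 genes lay within 373 bp of a start of that gene, and mib1, lqf and E(spl)m7-HLH held 2 conservative peaks each. The lists per role are short, and no test between roles was made.

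**Figure D4:**
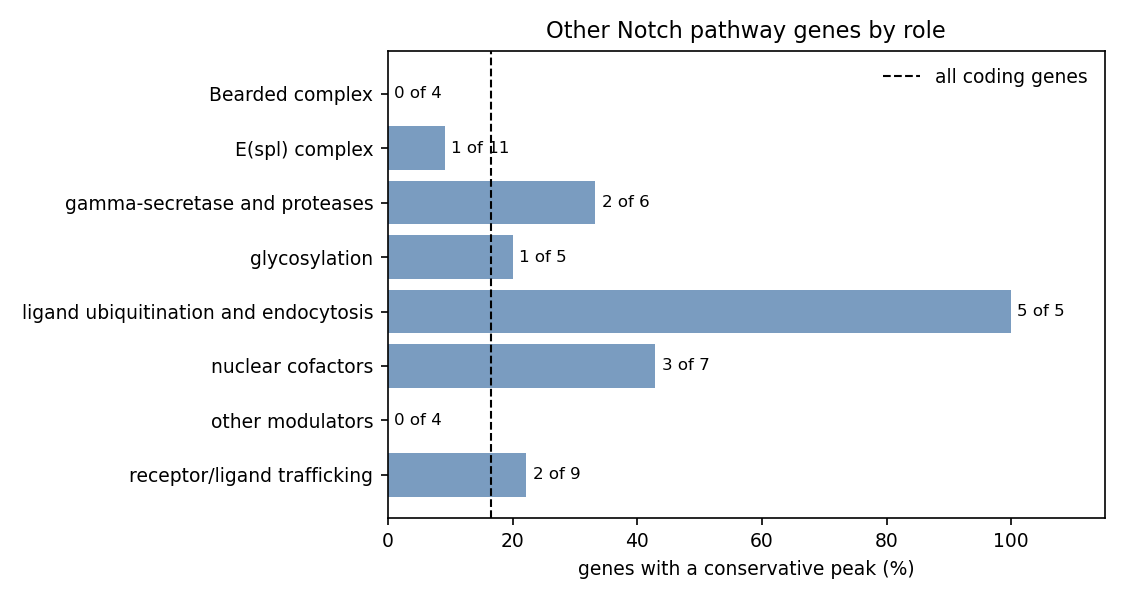
Share of genes with a conservative peak for 8 groups of other Notch pathway genes, with counts beside the bars; the dashed line marks the 16.6% of all coding genes. All 5 genes for ligand ubiquitination and endocytosis had a peak, and 1 of 11 other E(spl) complex genes did. The ligand endocytosis gene neur, with no conservative peak in its territory, is one of the 10 genes and is not in that group.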

How the data were processed

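Peak lists from anti-GFP chromatin immunoprecipitation of 3 biological replicates were used. Per the labels, chromatin was sonicated to a size range of 200 to 800 and the build is dm6. The authors deposited ranked and thresholded lists by irreproducible discovery rate (IDR), derived from alignments, per the file headers. Aligner and peak caller: not given in the sources used here. The signal of a region is the authors' deposited value for its strength, and its scale is not stated, so regions are described by rank within a list, and list lengths differ. The deposited score of a region, a whole number, ran from 830 to 1000 in the thresholded lists and was not otherwise used. The series-level lists do not name the samples they compare, and their ranked versions were not used. Read depth is unknown.

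Genes and starts came from Ensembl release 115 (annotation 6.54) and sequence from RefSeq, both of release 6, and no region ran past a chromosome's end. Positions are 1-based. Summits are the authors' deposited offsets. Rank 1 is the highest signal of a list, over all its entries, and overlap means at least 1 bp. A shared region is a run of bases covered by all 3 ranked lists, placed by its centre. Motifs were searched on both strands. Of the gene symbols, Dl and 5 of the 51 pathway names were found through synonyms. Named are the 10 genes, pathway genes with a conservative peak and genes sharing a start with such a peak. The genes and lists were chosen with earlier results of these data known. Values are described without tests, because all samples form a single group. Python 3.11.15, numpy 2.4.6 and pandas 2.3.3 were used, and the assignment of peaks was checked on simulated data. Alternatives were other flanks, lists, overlaps, windows and leaving out each replicate.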

Additional observations from a re-analysis of the deposited data

How the results depend on the processing

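Over 9 results and 70 alternatives, 43 values stayed within 1.5 times the reported one (for the share of coding genes, within its interval) and 27 did not. The count of 6 genes with a conservative peak became 3 in the list of 2301 peaks and 2 (mam and Su(H)) among the strongest 1396 peaks of the conservative list, and their 9 peaks became 3 in each; with peaks required in both other replicates, leaving out each replicate in turn gave 1 to 3 genes and 1 to 5 peaks, lowest without replicate 2. The 16.6% of coding genes became 53.2% with whole windows, 21.7% with any base of the peak counted, 15.3, 13.9 and 21.2% in the lists of 2456, 2301 and 3513 peaks, 10% among the strongest 1396, and 9.65 to 10.8% without a replicate. With whole windows 8 of the 10 genes had a peak, against that 53.2%. The other pathway genes were 32 of 51 with whole windows and 9 to 11 without a replicate. The 24 shared regions became 52 with whole windows, 13 in ranked lists cut to an equal length of 30159, and 34 to 77 without a replicate. Peaks overlapped in all thresholded lists, 1, were 1 to 5 in the remaining lists without a replicate. The cause of these differences was not tested; fewer or longer lists by themselves change such counts. No paired analysis was possible because the samples form 1 group. Read depth is unknown, so absence from a list does not show that Doc3 was absent.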
